A study of Mus musculus with 15 samples.

Results

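DNA levels of Yap1, its chromosome 9 neighbours Birc2 and Birc3, and the Hippo pathway genes Stk3, Stk4, Lats1, Lats2, Nf2 and Sav1 were examined in mouse liver tumours by array comparative genomic hybridisation (aCGH), a method that sets the amount of tissue DNA bound at each of many short probes against that of reference DNA. A gene was taken to be measured when the array's own gene name equalled its symbol. Of 9 genes, 8 had a probe by this rule, with 18 probes in all, out of 19948 autosomal gene names on the array. No probe carried the name Birc2, so that gene was dropped from the comparisons, and a probe found by its sequence is described further on. From 3 mice there were 5 hepatocellular carcinomas (HCC) and 3 unaffected livers. The strain label, shared by all tissues, lists Mad2flox, p53flox and AlbuminCre on a mixed background, C57BL/6 with a second inbred strain. Cre under the albumin promoter deletes floxed alleles of the spindle checkpoint gene Mad2l1 and of Trp53 in hepatocytes, while other liver cells keep them. HCC 1, HCC 2 and unaffected liver 1 came from female 3151, aged 16.4 months, with genotype Mad2(f/f) p53(f/+). HCC 3 and unaffected liver 2 came from male 3760, aged 13.8 months, and HCC 4, HCC 5 and unaffected liver 3 from male 4033, aged 13.9 months, both Mad2(f/f) p53(f/f). Genotype, sex and animal therefore cannot be told apart between the female and the males. Tumours of one liver share their animal, so p-values measure the spread among 8 tissues, not among independent mice. Reference DNA was normal liver of the other sex and the same background, without the floxed alleles in its label.

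The Hippo pathway restrains growth. The kinases encoded by Stk3 (Mst2) and Stk4 (Mst1), with the scaffold protein of Sav1, activate the Lats1 and Lats2 kinases, and these phosphorylate Yap1, a transcriptional co-activator, and keep it out of the nucleus. Merlin, the product of Nf2, acts upstream of the kinases. In the nucleus Yap1 binds Tead factors and drives growth genes. In mouse liver, loss of the upstream genes or excess of Yap1 is known to enlarge the organ and to cause tumours. Birc2 and Birc3 encode inhibitor of apoptosis proteins (cIAP1 and cIAP2), ubiquitin ligases of death receptor signalling. The 3 genes lie side by side near the start of chromosome 9, a stretch known to be amplified in some mouse liver cancers.

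Each value below is log2 of tissue over reference, centred on the median autosomal probe of its array, so that 0 is the typical autosomal level. The "level" of a gene is the mean of its probes. Its "chromosome-normalised level" has the median of all probes of that chromosome in the same tissue taken away. What is left can belong to the gene or to a larger part of its chromosome. A cut-off of 0.3 in absolute value marks a gain or loss. For scale, 1 against 2 copies of chromosome X gave a mean absolute level of 0.89 in the unaffected livers. Both dye orientations were averaged for 7 tissues, and HCC 3 had 1 array. Noise between neighbouring probes ranged from 0.083 to 0.20 per tissue. The ratio is an average over all cells of a piece of tissue, and fewer tumour cells and a smaller change per cell cannot be told apart.

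The probes behind the chromosome 9 genes are shown because all statements on a Yap1 amplicon rest on them. They are written in lower case, as the array design gives them, and no base is singled out. Positions are those of the array files, which do not name a genome build.
Yap1 probe 1, chr9:7932315-7932374: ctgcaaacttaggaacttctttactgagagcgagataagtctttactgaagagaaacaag
Yap1 probe 2, chr9:7975426-7975485: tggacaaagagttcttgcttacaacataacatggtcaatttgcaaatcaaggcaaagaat
Birc3 probe 1, chr9:7851131-7851190: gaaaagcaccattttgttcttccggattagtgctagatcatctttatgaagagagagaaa
Birc3 probe 2, chr9:7856851-7856910: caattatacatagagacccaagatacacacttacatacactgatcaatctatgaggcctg
Birc3 probe 3, chr9:7868811-7868869: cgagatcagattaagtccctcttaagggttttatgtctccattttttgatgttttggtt
Like its neighbour, a further probe of this stretch carries the name AK021182 on the array. Its reverse complement lies without a mismatch inside the RefSeq region around the start of Birc2 (GRCm38.p6, minus strand), and the position this match gives, chr9:7836802-7836861, is the one in the array files. It was picked after its values could be seen.
AK021182 probe at the Birc2 start: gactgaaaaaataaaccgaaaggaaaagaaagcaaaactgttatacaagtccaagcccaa
Of 279 autosomal probes that matched a RefSeq start region in this way, 9 had the same position in both sources, so most positions in the array files are not those of GRCm38.p6.

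Averaged over dye orientations, Yap1 was neither gained nor lost past 0.3 in any tumour. Its level was 0.12, 0.19, -0.18, -0.15 and -0.11 across HCC 1 to 5, and 0.049, 0.012 and -0.035 in unaffected livers 1 to 3. The tumours lay on both sides of the livers. The HCC mean was -0.028 ± 0.17 (SD, n = 5), that of unaffected livers was 0.0085 ± 0.042 (SD, n = 3), and they differed by -0.037 ± 0.13 (SE, limma adjusted p = 0.94). Once the chromosome 9 median was taken away, Yap1 stood at 0.061, 0.10, 0.10, -0.047 and -0.067 in HCC 1 to 5 and at 0.065, 0.0093 and -0.043 in the livers. The groups overlapped, with a difference of 0.018 and a 95% interval from -0.13 to 0.17 (limma adjusted p = 0.999). In HCC 4 the 2 Yap1 probes went opposite ways, with chromosome-normalised levels of -0.32 at probe 1 and 0.22 at probe 2. Probe 1 was low in both dye orientations there, at -0.47 forward and -0.38 dye-swapped on the level scale. In HCC 1 the orientations of the Yap1 level lay apart, at 0.36 forward, past the cut-off, and -0.13 dye-swapped.

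Birc3 reached the cut-off once, in HCC 3. Its level was 0.046, 0.042, -0.33, -0.091 and -0.027 in HCC 1 to 5 and 0.00047, -0.032 and -0.017 in the livers. The one low tumour was also the one in which the chromosome 9 median was lowest, at -0.29. Chromosome-normalised, Birc3 was between -0.051 and 0.016 in the tumours and between -0.034 and 0.016 in the livers, the narrowest range of the 8 genes. Its middle probe was the least steady, at -0.28 in both HCC 3 and unaffected liver 1. The chromosome-normalised difference was -0.0011, with a 95% interval from -0.13 to 0.12 (limma adjusted p = 0.999).

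The probe at the Birc2 start gave chromosome-normalised log2 ratios of 0.056, -0.11, -0.023, 0.20 and 0.17 across HCC 1 to 5. In unaffected livers 1 to 3 it gave 0.034, 0.054 and -0.061. HCC 4 and HCC 5, both of mouse 4033, were the highest, at 0.26 and 0.24 above their own liver. The difference between groups was 0.051 (exact permutation test, two-sided, p = 0.52, n = 5 and 3). This is a single probe. In HCC 4 and HCC 5, Birc3 next to it stood at 0.016 and 0.012 and Yap1 at -0.047 and -0.067. The neighbouring probe of the same array name, AK021182, read -0.22, -0.57, 0.11, -0.21 and 0.11 in HCC 1 to 5. It read -0.10, 0.022 and 0.0080 in the livers, so in HCC 4 the AK021182 probes went opposite ways.

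The 6 probes from the first Birc3 probe to the last Yap1 probe, across 124 kb, averaged -0.012, 0.036, -0.0011, -0.026 and -0.0089 in HCC 1 to 5 relative to chromosome 9. The standard error over these probes, which are not replicates, was 0.025 to 0.081. In unaffected livers 1 to 3 the average was 0.030, -0.0017 and -0.032. HCC 2 alone lay outside the range of the livers, and the mean difference was -0.0012. No average of 3 adjacent probes in this stretch rose above 0.12 in a tumour, against 0.11 in a liver.

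A wider look took in 71 probes across 3663 kb, from the caspase gene Casp1 to the progesterone receptor gene Pgr. Their mean was between -0.011 and 0.032 in the tumours and between -0.017 and 0.023 in the livers, relative to chromosome 9. Of 24 neighbouring genes listed, 16 had a probe, and 0 were called by limma on either scale, as were 0 of all gene names. The 5 with the largest chromosome-normalised difference were Casp4 (0.12), an inflammatory caspase, the metalloproteinase gene Mmp20 (0.10), Pgr (-0.080), Dcun1d5 (-0.062) and the metalloproteinase gene Mmp13 (-0.055). Casp4 was the only one of these 5 to pass 0.3 against own liver, at 0.54 in HCC 1 and 0.31 in HCC 5. Over all 16 genes, 7 of 80 pairs of gene and tumour (8.75%) did so chromosome-normalised, against 11.5% of all gene names. The other pairs, named after their values were seen, were Mmp10 in HCC 3 (-0.51), Mmp8 in HCC 3 (-0.31) and HCC 4 (0.35), Mmp1a in HCC 2 (0.35) and Pdgfd in HCC 5 (0.35). Means of 3 adjacent probes reached 0.40 and -0.48 in tumours, relative to chromosome 9, and the highest in a liver was 0.15. The lowest in a tumour was that of the 3 Mmp10 probes in HCC 3, which lie before Birc3. Unaffected liver 1 had adjacent probes at -0.62 (Mmp1a), 0.0059 (AK142592) and -0.62 (Mmp10), so single low probes were not confined to tumours. The other Mmp10 probes of that liver read 0.0021 and -0.0098, while the 3 of HCC 3 read -0.43, -0.58 and -0.42.

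**Figure D1:**
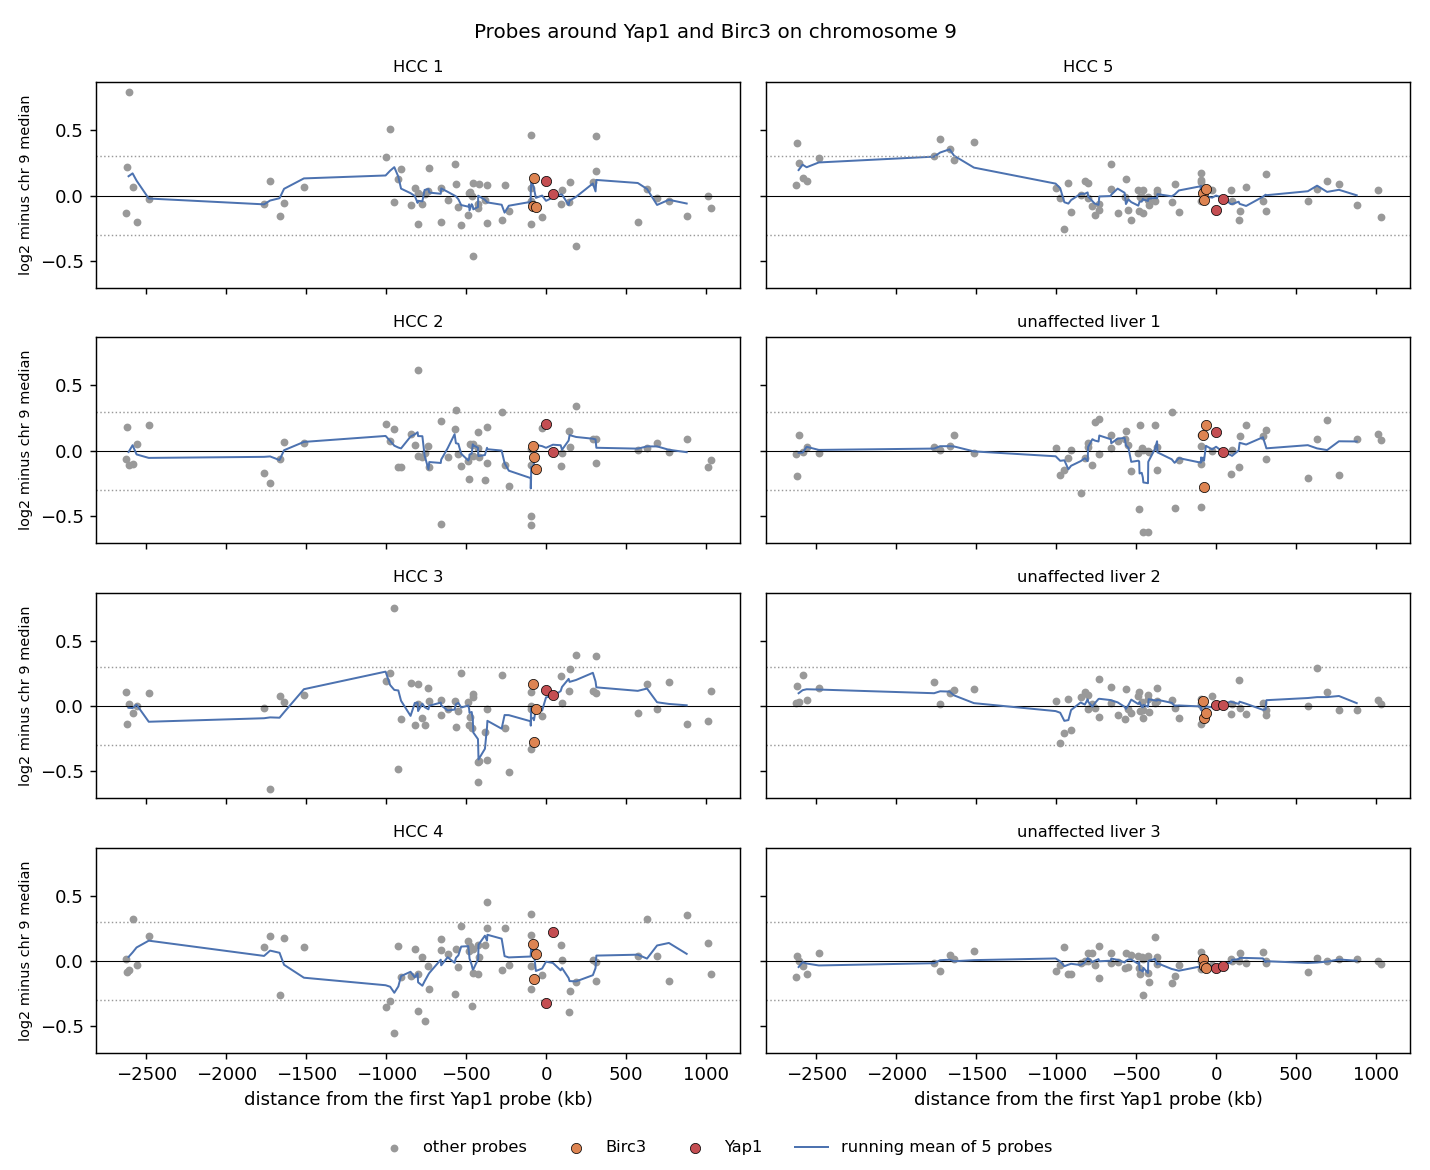
Chromosome-normalised log2 ratio of each probe (vertical axis) against its distance in kb from the first Yap1 probe (horizontal axis), with 1 panel per tissue. Grey points are other probes, coloured points Birc3 and Yap1, the line is a running mean of 5 probes and the dotted lines mark 0.3. The Yap1 and Birc3 probes lie within the dotted lines in all panels, except the first Yap1 probe in HCC 4 (-0.32). In HCC 5 the probes farthest to the left sit higher than the rest.

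The left end of HCC 5 was the one place near Yap1 where the profile stepped. When HCC 5 was divided into segments relative to its own liver, a break fell at chr9:6957468, 894 kb before Birc3. The 34 probes before the break stood at 0.20 ± 0.021 (SE over probes) above the chromosome 9 median in HCC 5, against -0.0050 ± 0.012 in unaffected liver 3. In the other tumours they stood between -0.038 and 0.074. Casp4 and Pdgfd, past 0.3 against own liver in HCC 5, lie before the break and so within this raised part. Birc3 and Yap1 lie after the break. The step was under the 0.3 cut-off.

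Among the core kinases, Stk3 was the only one of the 8 genes that was higher in every tumour than in every unaffected liver. Its probes, shown for that reason, lie on chromosome 15.
Stk3 probe 1, chr15:34874845-34874904: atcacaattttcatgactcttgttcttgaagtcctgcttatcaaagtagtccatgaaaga
Stk3 probe 2, chr15:34929670-34929729: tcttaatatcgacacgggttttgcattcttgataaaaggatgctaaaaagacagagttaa
The Stk3 level was 0.59, 0.34, 0.29, 0.75 and 0.62 across HCC 1 to 5. It was 0.10, 0.11 and 0.024 in unaffected livers 1 to 3. The groups did not overlap, and 6.06% of all gene names had every HCC above every liver in the same way, while 3.72%, and 0 of the 8 genes, had every HCC below. The Stk3 mean was 0.52 ± 0.20 (SD, n = 5) over the tumours, against 0.080 ± 0.049 (SD, n = 3) over the livers. The difference of 0.44 ± 0.14 (SE) had an exact permutation p of 0.036 (two-sided, 56 splits, smallest p 0.0179), and limma's adjusted p over all gene names was 0.31. It was present in both scanning days, at 0.38 (2 HCC and 2 livers) and 0.46 (3 HCC and 1 liver).

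The whole of chromosome 15 stood as high as Stk3. Its median was 0.54, 0.32, 0.35, 0.76 and 0.58 in HCC 1 to 5 and 0.013, 0.083 and 0.022 in the livers. Relative to it, Stk3 was at 0.051, 0.028, -0.065, -0.011 and 0.043 in the tumours and at 0.090, 0.030 and 0.0021 in the livers. The chromosome-normalised difference was -0.031, with a 95% interval from -0.16 to 0.10 (limma adjusted p = 0.999). The gain of this growth-restraining kinase gene was thus of the size of its chromosome's. Probe 1 read 0.14 to 0.21 above the chromosome median in the 3 livers, and probe 2 between -0.15 and 0.022. HCC 1 had the reverse order, with -0.14 at probe 1 and 0.24 at probe 2.

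Averaged over dye orientations, Stk4, the paralog on chromosome 2, was past 0.3 in HCC 5 alone. Its level was 0.13, -0.014, 0.10, -0.025 and 0.41 in HCC 1 to 5 and -0.039, 0.069 and 0.026 in the livers. The forward and dye-swap arrays gave 0.33 and -0.065 in HCC 1, 0.31 and -0.36 in HCC 4, and 0.43 and 0.38 in HCC 5. The chromosome 2 median of HCC 5 was 0.36, and after it was taken away Stk4 stood at 0.050 there. Between groups the chromosome-normalised difference was 0.044 (95% interval -0.12 to 0.21, limma adjusted p = 0.999).

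Lats1, on chromosome 10, went in both directions. Its level was -0.068, 0.11, 0.43, 0.13 and -0.49 across HCC 1 to 5, and 0.0023, 0.084 and 0.076 in the livers. HCC 3 was above and HCC 5 below every liver by more than the 0.3 cut-off, and the medians of chromosome 10 in those tumours were 0.17 and -0.55. Chromosome-normalised Lats1 was 0.26 in HCC 3 and 0.058 in HCC 5. The difference between groups was -0.031 ± 0.17 (SE, limma adjusted p = 0.96) for the level and 0.030 ± 0.086 chromosome-normalised. The second Lats1 probe read -0.31 in the forward and 0.86 in the dye-swap array of HCC 4, and 0.015 and -1.12 in HCC 5, in each case a gap wider than the level of the gene.

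Lats2, on chromosome 14, passed 0.3 in HCC 1 and HCC 4. Its level was 0.36, 0.055, 0.21, 0.38 and 0.17 in HCC 1 to 5 and 0.069, -0.013 and 0.12 in the livers. Chromosome 14 stood at 0.40 and 0.48 in HCC 1 and HCC 4. The level was 0.18 ± 0.13 (SE) higher in HCC (limma adjusted p = 0.72), and the chromosome-normalised difference was -0.0020, with a 95% interval from -0.18 to 0.18. In HCC 1 the 3 Lats2 probes were at 0.33, 0.057 and -0.50 relative to chromosome 14. The third of them read -0.60 in the forward and 0.39 in the dye-swap array, and the second read -0.22 and 1.18 in HCC 2.

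Sav1, the scaffold of the Mst kinases on chromosome 12, had the widest span of levels. They were 0.42, 0.75, -0.38, 0.28 and -0.22 in HCC 1 to 5, a range of 1.14, and 0.10, 0.037 and 0.022 in the livers, a range of 0.078. Both tumours of mouse 3151 were above every liver and HCC 3 and HCC 5 below. The chromosome 12 medians of the 5 tumours were 0.45, 0.56, -0.27, 0.13 and -0.36. With them taken away, Sav1 lay between -0.11 and 0.20 in HCC and between 0.0088 and 0.086 in liver. The average difference between groups was small, at 0.12 ± 0.21 (SE, limma adjusted p = 0.87), with levels above 0 in 3 tumours and below 0 in the others.

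Nf2, the upstream regulator on chromosome 11, was lower than its own liver in 4 of 5 tumours. The level was -0.32, -0.041, -0.25, -0.35 and 0.20 in HCC 1 to 5 and 0.11, 0.089 and -0.11 in the livers. HCC 1 and HCC 4 were past the 0.3 cut-off and HCC 5 was above every liver. The forward and dye-swap arrays gave -0.49 and -0.16 in HCC 1, and -0.78 and 0.076 in HCC 4. In unaffected liver 1 they gave -0.19 and 0.42. The difference between groups was -0.18 ± 0.15 (SE, limma adjusted p = 0.74), and chromosome-normalised -0.053, with a 95% interval from -0.29 to 0.18. With dim spots left out it was -0.37 (limma adjusted p = 0.57) and chromosome-normalised -0.24. Leaving out dim spots kept neither array of the second Nf2 probe in HCC 1. In unaffected liver 1 it kept the dye-swap array of that probe alone, at 0.99 on the level scale. The level difference was -0.015 within the first scanning day and -0.35 within the second. HCC 3 was the exception to the chromosomes, since its chromosome 11 median was 0.014 while Nf2 was at -0.26 relative to it. The segment of 1599 probes that held Nf2 there had a mean of -0.086, and the mean minus the chromosome median was -0.10. Against own liver Nf2 in HCC 3 was at -0.36 chromosome-normalised. Its 2 probes are shown because this single value past the cut-off depends on them.
Nf2 probe 1, chr11:4672316-4672375: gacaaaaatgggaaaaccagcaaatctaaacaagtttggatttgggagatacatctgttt
Nf2 probe 2, chr11:4694864-4694923: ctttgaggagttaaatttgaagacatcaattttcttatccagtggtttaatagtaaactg
Probe 1 read -0.023 in HCC 3 and 0.34 in unaffected liver 2, relative to chromosome 11, and probe 2 read -0.50 and -0.14. The difference was -0.36 at either probe, at the first through a high liver and at the second through a low tumour. Probe 2 had the lowest GC content of the 18, 30%, against a median of 36.7% on the array, and was not well above background on 9 of 15 arrays. Probe 1 was well above background on all 15. HCC 3 had 1 dye orientation, and the part of that in the value was not tested. On probe 1 alone, HCC 1 and HCC 2 were at -0.062 and 0.18 against their own liver, and HCC 4 and HCC 5 at 0.075 and 0.074. With forward arrays alone, Nf2 in HCC 3 was within the cut-off.

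**Figure D2:**
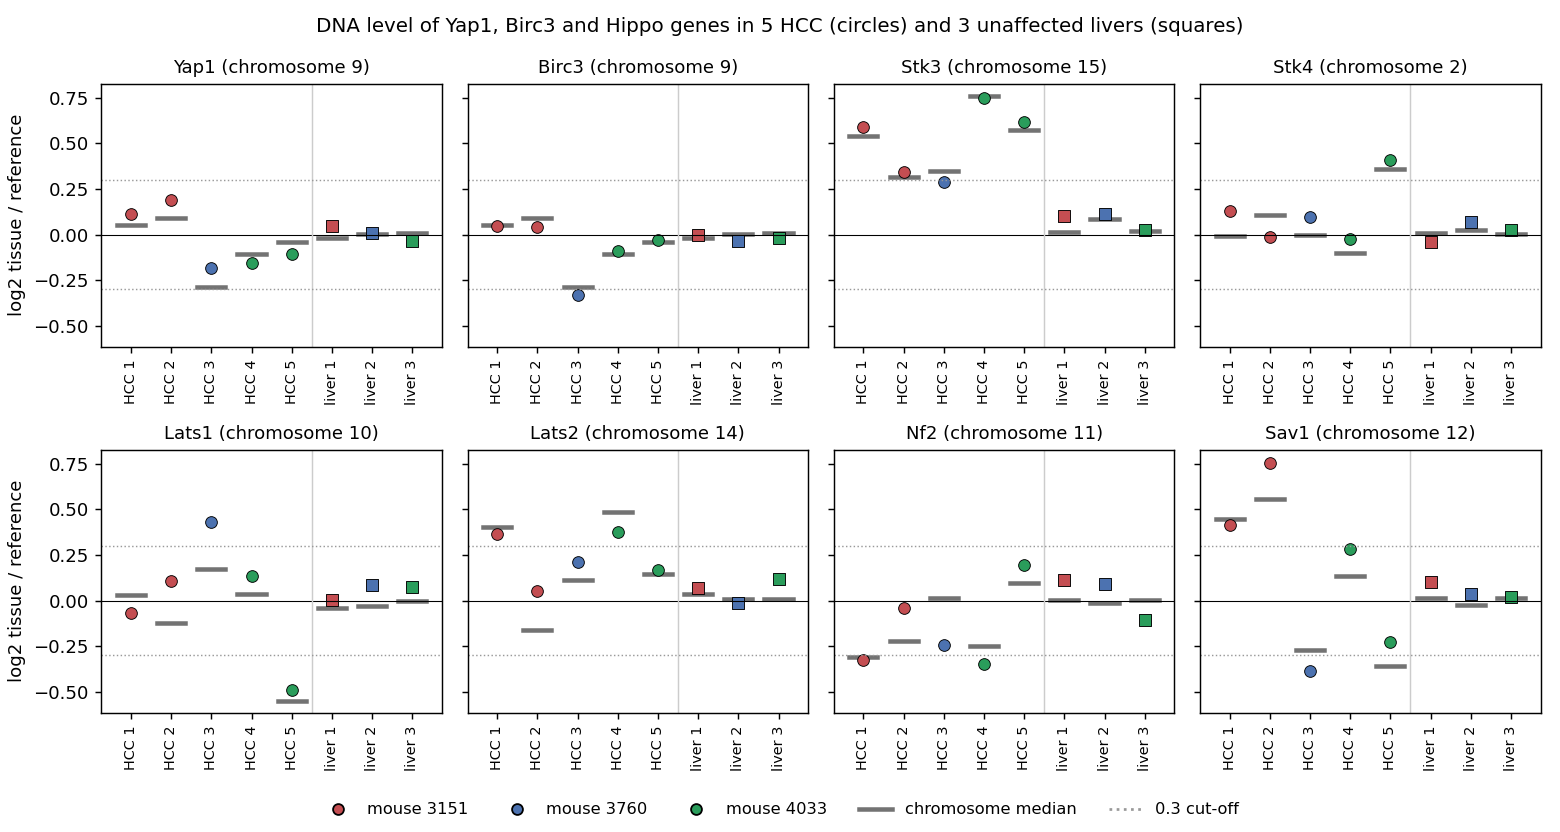
Level of each gene (log2 of tissue over reference, vertical axis) in 5 HCC (circles) and 3 unaffected livers (squares), coloured by mouse, with the median of its chromosome in that tissue as a grey bar and the 0.3 cut-off dotted. The points follow the bars, Stk3 is raised in all 5 tumours, and Sav1 and Lats1 lie on both sides of 0.

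Counted over 8 genes and 5 tumours, 15 of 40 levels passed the 0.3 cut-off against the reference, 10 as gains and 5 as losses. In HCC 1 these were Stk3, Lats2 and Sav1 (gains) and Nf2 (loss), 4 of 8, where 38.7% of all gene names passed. HCC 2 had gains of Stk3 and Sav1 (28.6% of all gene names passed), and HCC 3 a gain of Lats1 and losses of Birc3 and Sav1 (26.8%). HCC 4 had gains of Stk3 and Lats2 and a loss of Nf2 (35.1%), and HCC 5 gains of Stk3 and Stk4 and a loss of Lats1 (54.5%). In the unaffected livers 0 of 24 levels passed, and the values ran from -0.11 to 0.12. Chromosome-normalised and against own liver, 1 of 40 values passed, Nf2 in HCC 3. The share of all gene names past the same cut-off was 18.0%, 14.7%, 12.8%, 9.64% and 2.61% across HCC 1 to 5. These shares include gene names with a single probe, while each of the 8 genes has 2 or 3.

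By limma, 0 of the 8 genes were called at an adjusted p of 0.05, for the level or chromosome-normalised, and the share of all gene names called was 0% on both scales. At an unadjusted p under 0.05, 1620 of 19948 gene names passed for the level, Stk3 being the only one of the 8, and 308 chromosome-normalised, with none of the 8. The exact permutation test called 0 as well, but its smallest p of 0.0179 leaves little room to pass an adjustment over this many names, so that count adds nothing. The median absolute difference between HCC and liver was 0.11 over the 8 genes and 0.13 over all gene names for the level, and 0.024 and 0.054 chromosome-normalised. All gene names include those with a single probe, and the part of probe number was not tested. The 95% intervals of the chromosome-normalised differences reached at most 0.29 from 0 for the 8 genes.

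The levels of the genes followed their chromosomes tumour by tumour. Over the 40 pairs of gene and tumour, each minus own liver, gene level and chromosome median had a Pearson correlation of 0.92 and a Spearman correlation of 0.91, given as a description because the points share arrays, centring and livers, and Yap1 and Birc3 share a chromosome. The gene was within 0.2 of its chromosome in 37 of 40, and 3 of 40 (7.5%) lay farther off, against 24.7% of all pairs of gene name and tumour. Each of the 8 genes has 2 or 3 probes, while all gene names include those with a single probe. The part of probe number in this contrast was not tested. Of 12 levels at least 0.3 from own liver, 11 had the sign of their chromosome's shift.

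**Figure D3:**
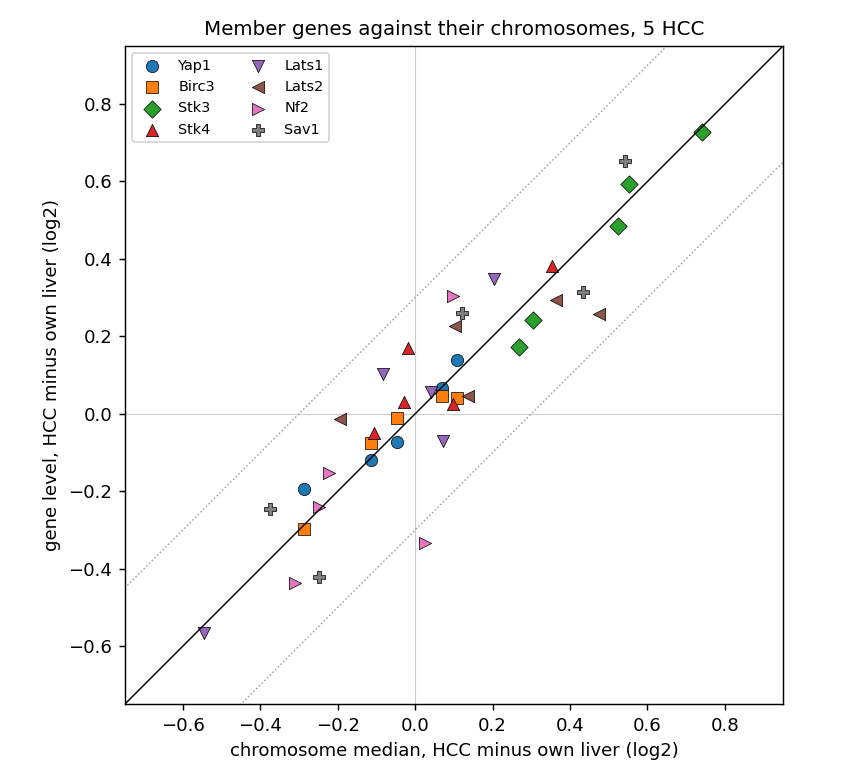
Gene level against the median of its chromosome (both in log2, HCC minus own liver) for 8 genes in 5 HCC. The solid line marks equal values and the dotted lines lie 0.3 away, and Nf2 in HCC 3 is the single point beyond them.

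Tumours of the same liver shared some of these changes and not others. In mouse 4033, HCC 4 and HCC 5 had opposite signs for Lats1 (0.13 and -0.49), Nf2 (-0.35 and 0.20) and Sav1 (0.28 and -0.22). They shared the gain of Stk3 (0.75 and 0.62). For Lats1 and Nf2, the forward and dye-swap arrays of HCC 4 themselves differed in sign. In mouse 3151, HCC 1 and HCC 2 both had gains of Stk3 and Sav1, and differed most in Lats2 (0.36 and 0.055) and Sav1 (0.42 and 0.75). HCC 4 and HCC 5 were scanned on different days, and the part of that was not tested.

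No segment that set a gene apart from its chromosome was found in a tumour. Segments were cut where the mean of at least 5 neighbouring probes changed, and a segment was called focal when it held under 50% of the probes of its chromosome and its mean was at least 0.3 from the chromosome median. For the 8 genes, 0 focal segments held one in any of the 5 HCC, against the reference or against own liver. The segment farthest from its chromosome held Stk3 in HCC 2, 127 probes with a mean 0.16 below the chromosome 15 median. A change of fewer than 5 probes is not seen in this way, and each of the 8 genes has 2 or 3 probes.

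The one focal segment was in a liver and held Stk4, in unaffected liver 3. When segments of 3 probes were allowed, no focal segment held Stk4 in this liver, and segments without the gene were not counted. The segment with Stk4 had 5 probes, chr2:163939479-164015051, and a mean 0.48 below the chromosome 2 median. Both Stk4 probes read near 0 there, at -0.018 and 0.060, and the low values came from the probes of Wfdc5 (-0.58) and Wfdc12 (-1.97), genes of whey acidic protein inhibitors named after their values were seen. The Wfdc12 probe was at 0.98 and 1.47 in HCC 1 and HCC 2 and 0.97 in unaffected liver 1, all of mouse 3151. In mouse 4033 it was at -0.76 and -1.93 in HCC 4 and HCC 5, beside -1.97 in their liver. It stood at 0.095 in HCC 3 and -0.52 in unaffected liver 2. Tumour and liver of an animal thus had the same sign except in mouse 3760.

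The 2 probes on either side of each gene gave 29 flanking probes that belonged to none of the 8 genes. Of their 232 chromosome-normalised values, 17 (7.33%) were at least 0.3 from 0, against 9.81% over all autosomal probes, and they ran from -0.66 to 0.53. The lowest was at Nin, beside Sav1, in HCC 1 (-0.66), and the same probe was at -0.64 in HCC 4. The highest was at Tomm34, beside Stk4, in HCC 3 (0.53). A probe before Birc3 at chr9:7839377-7839436 read 0.47, -0.50, -0.33, 0.36 and -0.041 in HCC 1 to 5 and -0.43 in unaffected liver 1, while its neighbour at chr9:7838555-7838614 stayed between -0.038 and 0.12 in all 8 tissues. The mean of each gene with its flanking probes was between -0.098 and 0.18 in all tumours. The extremes were Stk3 in HCC 3 and Lats2 in HCC 2.

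Of 33 other Hippo pathway genes listed, 29 had a probe, 4 of them under an older symbol. Limma called 0 of 29 on either scale, and 0 of all gene names. At an unadjusted p under 0.05, which 8.12% of all gene names passed for the level, 1 did so, Axl, a receptor tyrosine kinase gene and Yap1 target, at -0.35 ± 0.14 (SE, limma adjusted p = 0.52). Every HCC was below every liver in level for 2 of the 29, Map4k1 and Tead2, and above for none, where 3.72% of all gene names were below and 6.06% above in this way. The 29 genes had a median level difference of -0.096 and a median chromosome-normalised difference of -0.024, with 9 of 29 above 0, against a median of -0.0036 over all gene names. Of 145 pairs of gene and tumour, 17 (11.7%) were at least 0.3 from own liver chromosome-normalised, near the 11.5% over all gene names and tumours.

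The 5 with the largest chromosome-normalised difference were Areg, Axl, Map4k2, Rassf1 and Wwc2. Areg, which encodes amphiregulin and is a Yap1 target, differed by -0.39 ± 0.21 (SE, limma adjusted p = 0.999). Its single probe was at 0.94 in unaffected liver 1, and at 0.039 and -0.13 in the other livers, so 1 tissue set the difference, and the tumours lay between -0.28 and 0.077. Axl differed by -0.16 and Map4k2, a kinase acting beside the Mst kinases, by -0.15. Rassf1, a regulator of the Mst kinases, differed by -0.14, with its single probe above the chromosome in all 8 tissues, from 0.26 to 0.86. Wwc2, an activator of the Lats kinases, differed by 0.11. Of the DNA-binding partners, Tead1 on chromosome 7 was at least 0.3 from own liver in 3 of 5 tumours, at -0.34 in HCC 1, 0.32 in HCC 3 and -0.47 in HCC 5, and its chromosome-normalised difference was -0.10 ± 0.14 (SE). Wwtr1, the co-activator closest to Yap1, differed by -0.26 in level and -0.0049 chromosome-normalised.

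**Figure D4:**
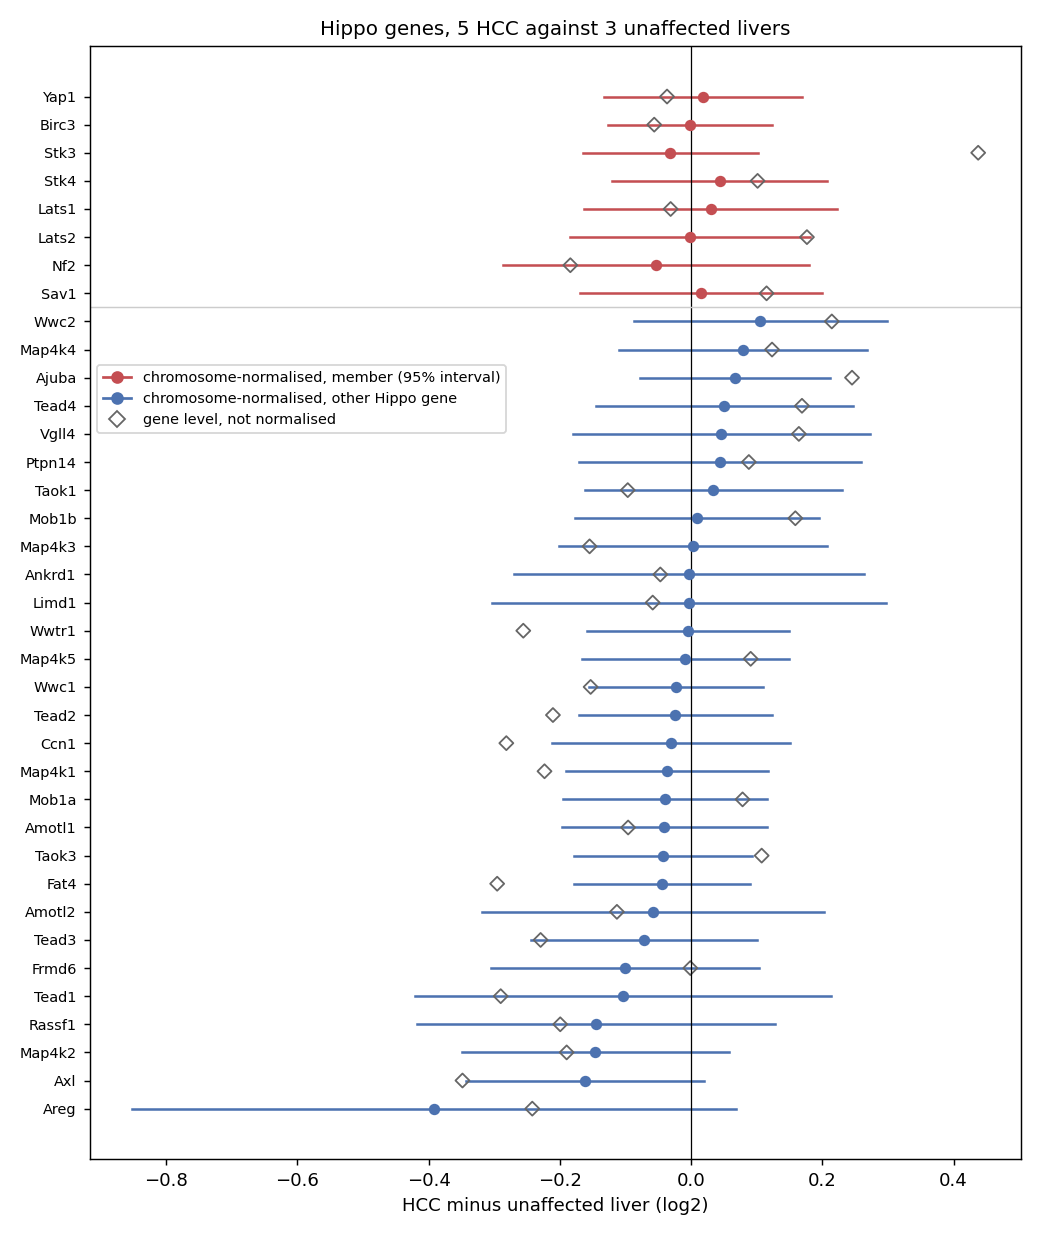
Difference between 5 HCC and 3 unaffected livers (log2, horizontal axis) for the 8 genes and 29 other Hippo genes. Filled points with 95% intervals are chromosome-normalised and open diamonds are levels, and every interval includes 0.

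Of 7 other inhibitor of apoptosis genes listed, 5 had a probe (Birc5, Birc6, Naip1, Naip2 and Naip5). Limma called 0 of them on either scale, and 0 of all gene names. Their chromosome-normalised differences ran from -0.076 at Birc6 to 0.080 at Naip5. The Naip genes are near-identical copies in a cluster, and how their probes share DNA was not tested.

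The gene names whose chromosome-normalised levels ran most like those of Yap1 over the 8 tissues, among 10915 others with at least 2 probes, were Jhdm1d (Pearson r = 0.97), P2rx4 (0.96) and Thex1 (0.96). For Stk3 they were Galnt11 (0.97), Fsip1 (0.96) and Gria1 (0.95), and for Nf2 Rnf141 (0.97), Onecut1 (0.96) and AK046622 (0.96). None lies on the chromosome of the gene it resembles, and with 8 tissues and this many candidates such values are a description only.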

How the data were processed

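DNA of 8 tissues was hybridised on 15 Agilent arrays with 2 dyes. The authors produced the scanner files' intensity values with Agilent Feature Extraction 9.1.3.1, per the file headers, by subtracting background, detrending and normalising the dyes, with surrogates for signals near background. The log10 ratios of the deposited series table matched the scanner files' red-to-green ratio within 4.99e-06, sign turned for dye swaps. No column belonged to another sample. Signal over background had a median of 3.78 to 6.88 (green) and 3.72 to 7.95 (red) per array. The share of spots not well above it was 0.191% to 2.31%. The number of arrays limits the precision.

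Processed intensities were turned into log2 of tissue to reference, leaving out control and outlier-marked spots. The median of 40726 autosomal probes was set to 0 in each array without loess, and the dye orientations of a DNA were averaged and counted once. Levels were means over the probes of a gene name. Groups were compared by limma 3.58.1 (lmFit, eBayes) under R 4.3.3 over 19948 gene names, with Benjamini-Hochberg adjustment, and single values by two-sided exact permutation over 56 divisions of tissues. Segments were found by optimal partitioning (penalty 3 per squared noise and log number of probes). Older symbols were matched through RefSeq (GRCm38.p6). The steps were tested on simulated data, where limma recovered none of the genes shifted by 0.3 and not every segment of 5 probes was found. Tables and segments were computed in Python 3.11.15 (scipy 1.17.1, numpy 2.4.6, numba 0.67.0, pandas 2.3.3) and drawn with matplotlib 3.10.9.

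The 9 genes and the lists were chosen with earlier results of these data known. Named were the measured ones of the 9 with their flanking probes, the 5 genes with the largest chromosome-normalised difference in the Hippo and in the chromosome 9 list, and the 3 names most like each of Yap1, Stk3 and Nf2. Others were named after their values were seen. Tissues of one animal pair the groups. Deviations from group means were correlated over probes, giving r of 0.17 to 0.40 for tissues of one mouse and of -0.33 to 0.11 for tissues of different mice. Deviations cancel within a group at each probe, so a higher r within a mouse goes with lower r between mice. This contrast is thus partly fixed in advance. Slides numbered 4 and scanning days 2. Alternatives were normexp correction, mode centring, forward arrays alone, dim spots left out, outlier-marked spots kept, the series table, probe medians, mouse or day as a block, values within each day, each tissue left out, and other cut-offs, baselines and segment settings.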

Additional observations from a re-analysis of the deposited data

Results flagged for a closer look

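Yap1 and Birc3 differed in sign between the tumours of the p53(f/+) female and those of the p53(f/f) males, each against its own liver. The Yap1 level was 0.066 and 0.14 in HCC 1 and HCC 2 and -0.19, -0.12 and -0.072 in HCC 3 to 5, and the mean of the first 2 was 0.23 above that of the other 3. Birc3 was at 0.045 and 0.042 against -0.30, -0.074 and -0.011, a difference of 0.17. Neither difference was tested, and genotype, sex, age and animal cannot be told apart in it. Both genes lie on chromosome 9, whose median moved the same way. Chromosome-normalised, neither gene divided the tumours in this manner. No tumour stood apart from its nearest neighbour by a gap above 0.71 of the range of all 5, in 16 checks of 8 genes on 2 scales.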

How the results depend on the processing

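Limma called 0 of the 8 genes, and 0 of all gene names, on either scale, under every alternative run, so the count is not particular to the 8. Adjusted p ranged from 0.15 to 0.996 for levels and from 0.93 to 1 chromosome-normalised. No focal segment held one of them in a tumour with a penalty of 2 or with segments of at least 3 probes. Of 160 alternative values per scale, 146 of the level and 130 of the chromosome-normalised differences kept their sign. Some of these signs were fixed in advance. The exact permutation test repeats the main difference, and probe medians equal means for genes of 2 probes. Stk3 (level 0.38 to 0.50, adjusted p 0.15 to 0.98), Stk4 and Nf2 kept the sign of their level difference throughout, and Stk4 also chromosome-normalised. The cause of the sign changes below was not tested.

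Normexp correction turned the sign of the level difference for Yap1 (0.017) and Lats1 (0.058), and chromosome-normalised for Birc3 (0.021), Stk3 (0.023), Lats2 (0.043), Nf2 (0.030) and Sav1 (-0.016). It moved the Birc3 to Yap1 stretch to 0.032. Forward arrays alone turned Lats1 (0.058) and Lats2 (-0.0083) in level, and outlier-marked spots turned Lats1 (0.081). Birc3 turned chromosome-normalised with dim spots left out (8.63e-05) and with the series table (0.00044). The replicate block by mouse, which pairs tissues of an animal, changed no call. It turned Lats1 in level (0.0089) and Sav1 chromosome-normalised (-0.00048). Scanning day as a block turned Sav1 on both scales (-0.027 and -0.0056) and Lats2 chromosome-normalised (0.0055). Within the first day, Sav1 was at -0.33 in level and -0.024 chromosome-normalised, Birc3 at 0.013 and Lats2 at 0.017 chromosome-normalised. Within the second, the level was 0.00060 for Yap1 and 0.055 for Lats1, and Yap1 was at -0.029 chromosome-normalised.

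With each tissue left out in turn, the level difference ran from -0.091 to 0.0020 for Yap1, -0.086 to 0.0084 for Birc3, 0.029 (without HCC 5) to 0.14 for Stk4, -0.13 to 0.097 for Lats1, -0.27 (without HCC 5) to -0.13 for Nf2 and -0.031 to 0.25 for Sav1. Chromosome-normalised it ran from -0.0082 to 0.046 for Yap1, -0.011 to 0.014 for Birc3, 0.016 (without unaffected liver 1) to 0.087 (without HCC 2) for Stk4, -0.0076 to 0.082 for Lats1, -0.046 to 0.035 for Lats2, -0.12 to 0.0066 for Nf2 and -0.017 to 0.060 for Sav1.

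The 1 of 40 chromosome-normalised values past 0.3 from own liver became 0 without HCC 3 or unaffected liver 2 and 1 without any other tissue. It became 3 with forward arrays alone (Lats2 in HCC 1 and HCC 2, Nf2 in HCC 4). With dim spots left out it was 3 (Nf2 in HCC 1, HCC 2 and HCC 3). There HCC 1 and HCC 2 were set against a liver whose second Nf2 probe kept its dye-swap array alone. With outlier-marked spots kept it was 2 (Lats1 in HCC 2, Nf2 in HCC 3). A cut-off of 0.2 gave 3 (7.5%, against 24.7% of all gene names, those with a single probe included). One of 0.5 gave 0 (against 2.75%), and the reference in place of own liver gave 0.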
